A study of Saccharomyces cerevisiae with 8 samples.

Results

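A total of 2443 probe sets on the yeast array carried no gene symbol, out of 9275 that were not Affymetrix controls (26.3%). They were taken as every probe set of the deposited value table whose ID does not start with AFFX and that has no symbol in the platform annotation. All 2443 are absent from that annotation and none is listed with an empty symbol, so they are unnamed here, which does not mean that they lie outside genes. Of the rest, 6504 had 1 symbol and 328 had several. The samples were 8 cultures of haploid Saccharomyces cerevisiae strains derived from W303a, each hybridised to 1 array. Both yeast genes for the translation factor eIF5A, hyp2 and anb1, are described by the labels as disrupted in every strain, with human EIF5A1 supplied from a plasmid. By the series design, which counts isogenic strains, the plasmid encoded wild-type EIF5A1 in 4 strains, which grow normally per the labels, and the V81G point mutant in the other 4, which are temperature sensitive. All cultures were grown at 25 °C, the permissive temperature, into the early logarithmic phase.

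eIF5A carries hypusine, an amino acid found in no other protein, and helps ribosomes past stretches that are hard to translate. The series title concerns nonsense-mediated decay, which destroys RNAs whose translation stops early. In budding yeast much of the genome outside annotated genes is transcribed, and many such RNAs are held at low levels by nuclear and cytoplasmic decay, nonsense-mediated decay among them. Probe sets without a gene symbol can read such RNAs, repeated elements, genes withdrawn from the annotation, or nothing at all. Which of these each member reads is not stated in the files, and the sequences of the probes were not used.

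An Affymetrix probe set summarises several short probes, and the suffix of its ID tells how the probes were chosen. The plain suffix _at stands for probes meant for 1 transcript, _s_at for probes shared by similar transcripts and _f_at for probes shared across a sequence family. The suffix _i_at marks sets with fewer probes than usual and _r_at sets for which selection rules were dropped. Of the 2443 members 1861 were _at, 290 _f_at, 142 _i_at, 69 _s_at, 43 _r_at and 38 _g_at. Among probe sets with 1 symbol 5657 of 6504 were _at and 194 were _f_at.

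Levels are log2 intensities, and all differences are V81G minus wild type on that scale, so that higher, lower, rose and fell refer to the arrays labelled V81G. HYP2, described as disrupted in every strain, read 15.41 to 15.43 in the 4 arrays labelled wild type and 11.83 to 12.35 in the 4 labelled V81G. Both groups lay above the 75th percentile of all probe sets, 11.37, so neither was at background, and the first group was far higher. These levels go against that description. Groups are therefore called by their labels. By the run sheets, day 1 held the hybridizations of replicates 1 and 2 of both groups, and day 2 those of replicates 3 and 4. The 3′ minus 5′ signal of the ACT1 control, a measure of RNA quality, was 1.17 to 1.40 in the arrays labelled V81G and 0.71 to 1.10 in those labelled wild type, without overlap. The same measure for SPT15 was 1.61 to 2.15 and 1.66 to 2.03. Whether RNA quality takes part in the results below was not tested. The effect of V81G and anything else shared by the 4 strains of a label cannot be told apart.

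Probe sets without a symbol were mostly dim. Their median level over the 8 arrays was 9.30, against 10.41 for those with 1 symbol and 11.91 for those with several. In the lowest quartile of all probe sets, under 9.03, lay 1046 members, and 334 lay in the highest quartile, at or above 11.37. The 4 control probe sets for mouse genes, which yeast lacks, served as a gauge of signal without a target. Their group means ran from 7.92 to 9.86. A mean above 9.86 in at least 1 group was reached by 972 members (39.8%), while 67.1% of the probe sets with 1 symbol reached it. The other members cannot be told from background by this gauge, and no detection marks were used here.

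Across all probe sets 17.6% passed the test (limma, Benjamini-Hochberg adjusted p under 0.05 over 9275), 8.96% upward and 8.59% downward. Among the members 184 rose (7.53%), 25 fell (1.02%) and 2234 did not pass. The share of rises was thus near the background and that of falls below it. Probe sets with 1 symbol rose in 567 cases (8.72%) and fell in 759 (11.7%). Of the 328 with several symbols 80 rose (24.4%) and 13 fell (3.96%), so an excess of rises over falls was not particular to the members. Members supplied 22.1% of all rises and 3.14% of all falls. At least 2-fold rises numbered 81 and falls of that size 6, and over all probe sets such rises made up 3.22% and such falls 2.13%. The median difference of the members was 0.09, with the middle 50% of them between -0.07 and 0.30, while the medians were -0.02 over all probe sets, -0.08 over those with 1 symbol and 0.18 over those with several.

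**Figure D1:**
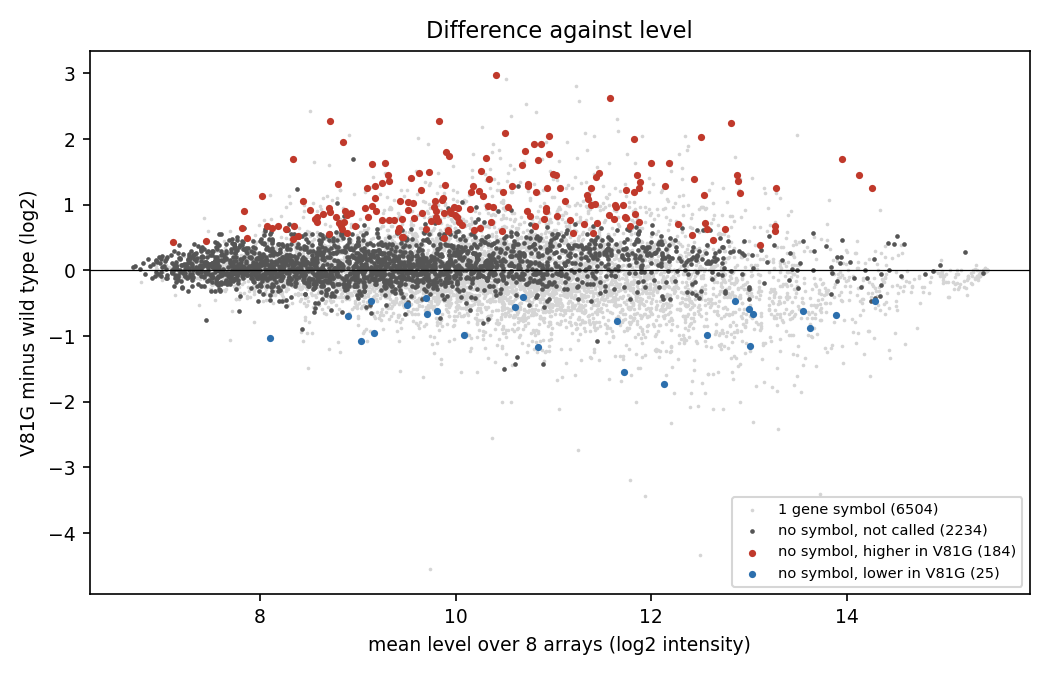
The difference of V81G minus wild type (log2, vertical axis) is plotted against the mean level over 8 arrays (log2 intensity, horizontal axis), 1 point per probe set. The 184 members that rose (red) spread over nearly all levels, the 25 that fell (blue) are few, and the 6504 probe sets with 1 symbol (pale grey) extend further below 0.

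The groups did not overlap for 225 members that were higher in every array labelled V81G (9.21%, against 10.9% of all probe sets) and for 49 that were lower in every one (2.01%, against 11.8%). A positive difference was found for 64.4% of the members, against 47.7% of all probe sets. The rises ranged from 0.38 to 2.97 with a median of 0.95 (1.94-fold), and the falls from -0.40 to -1.73 with a median of -0.68 (1.60-fold). Of the 184 that rose, 80 had both group means above the mouse controls, 53 were above them only in the arrays labelled V81G and 51 in neither group. For members under that gauge in a group, background can shrink the difference. Of the 25 that fell, 15 had both means above it.

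The count of falls rested on few members and moved with single arrays. It was 11 without wild type 4, 15 without wild type 1, 16 without wild type 3 or V81G 2, and 17 to 21 without any of the other arrays. Rises numbered 132 to 192 when any 1 array was left out. With the hybridization day as a block 311 members rose (12.7%) and 53 fell (2.17%), against 12.7% and 13.0% of all probe sets.

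The excess of rises over falls was present on each day, but the shift of the median was not. On day 1 alone, 2 arrays against 2, 119 members rose (4.87%) and 14 fell (0.573%), against 6.63% and 5.15% of all probe sets. On day 2 alone 275 rose (11.3%) and 36 fell (1.47%), against 9.26% and 10.6%. The median difference of the members was -0.03 on day 1 and 0.21 on day 2, while over all probe sets it was -0.04 and 0.01. On day 1 fluidics station 2 ran both V81G arrays and station 1 both wild-type arrays. Label and station therefore cannot be told apart within day 1. With the station as a block 225 members rose and 34 fell, out of 1844 calls over all probe sets, and the members' median was 0.13. All 184 rises and all 25 falls had the same sign on both days, which follows in part from their being called over both.

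The members' general level varied from array to array. The median level of the members was 9.43, 9.32, 9.38 and 9.39 in V81G 1 to 4 and 9.27, 9.48, 9.22 and 9.01 in wild type 1 to 4. The groups overlapped, with wild type 2 the highest and wild type 4 the lowest of all 8 arrays. The mean of the mouse controls was 8.96, 8.84, 8.63 and 8.55 in V81G 1 to 4 and 8.71, 9.05, 8.72 and 8.30 in wild type 1 to 4, so the same pair of wild-type arrays stood at the ends. Without wild type 4 the median difference of the members was 0.01, and without wild type 2 it was 0.16. With both left out 121 members rose and 7 fell, and with the mean of the mouse controls as a covariate 242 rose and 37 fell.

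**Figure D2:**
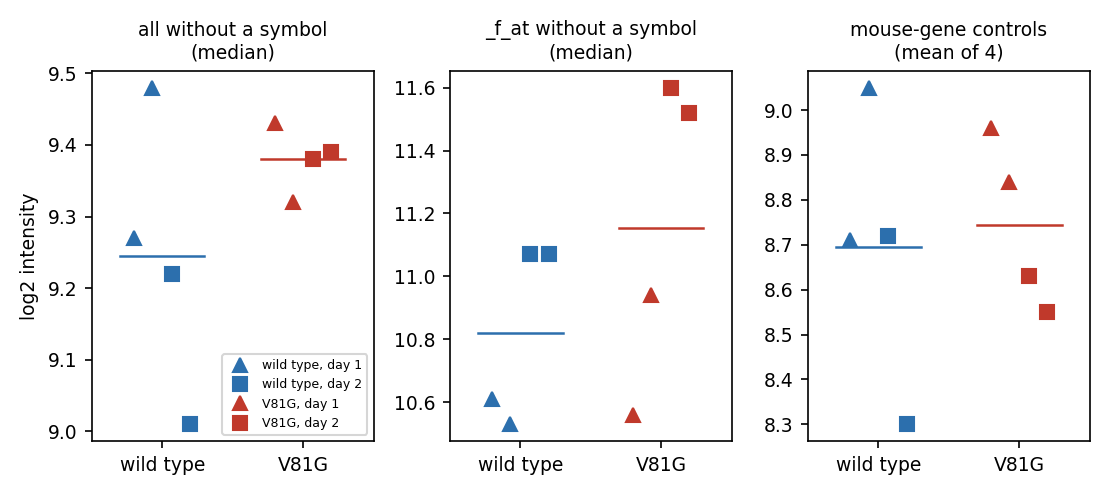
Log2 intensity of each array (points, triangles for day 1 and squares for day 2) with the group mean (line), for the median of all 2443 members, the median of the 290 _f_at members and the mean of 4 mouse-gene controls. The members' medians overlap between groups, those of _f_at members are higher on day 2 in both groups, and wild type 2 and 4 are the ends of the left and right panels.

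The balance of rises and falls differed with level. In the lowest quartile 36 of 1046 members rose (3.44%) and 2 fell (0.191%), in the second 57 of 652 rose (8.74%) and 8 fell (1.23%), and in the third 44 of 411 rose (10.7%) and 3 fell (0.730%). In the highest quartile 47 of 334 rose (14.1%) and 12 fell (3.59%). Probe sets with 1 symbol rose at 4.60%, 8.90%, 11.5% and 8.54% from the lowest to the highest quartile, shares within 1.5 times of the members' in the first 3 quartiles and lower than theirs in the highest. Their falls came to 2.26%, 7.43%, 12.6% and 21.1%, above those of the members in every quartile. The 35, 37, 62 and 194 probe sets with several symbols rose at 14.3%, 18.9%, 46.8% and 20.1%, above the members in every quartile. They fell at 11.4%, 2.70%, 4.84% and 2.58%, in the highest quartile below the members. Medians moved apart in the same order, from 0.05 to 0.08, 0.13 and 0.23 for the members and from -0.01 to -0.06, -0.07 and -0.19 for probe sets with 1 symbol. Within days the highest quartile had medians of 0.03 and then 0.41 for members, and of -0.12 and then -0.27 for probe sets with 1 symbol.

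**Figure D3:**
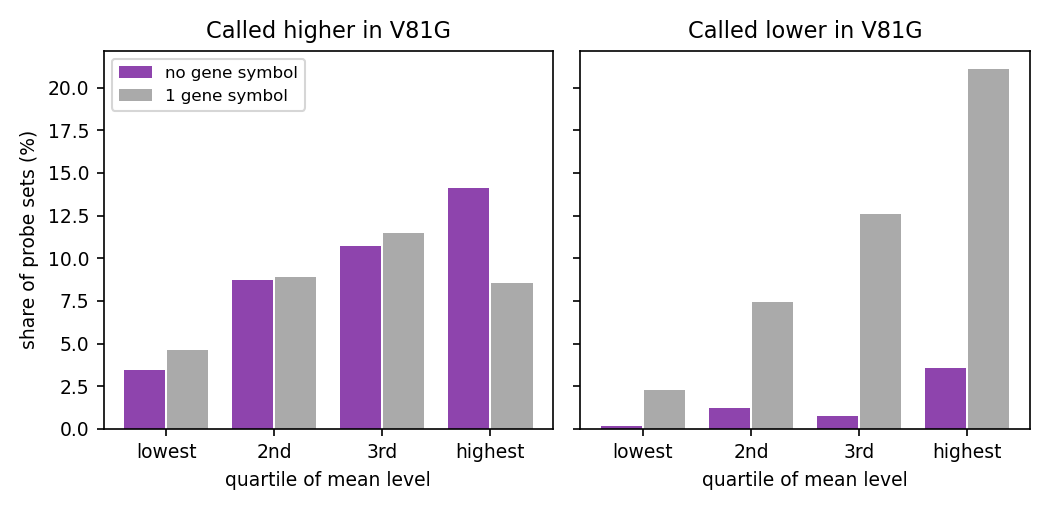
Share of probe sets (%, vertical axis from 0) called higher (left) or lower (right) in the arrays labelled V81G, by quartile of the mean level over all 9275 probe sets, for those without a symbol (purple) and with 1 symbol (grey). In the highest quartile 14.1% of the members rose and 3.59% fell, against 8.54% and 21.1% of the probe sets with 1 symbol. Probe sets with several symbols are not drawn, and in that quartile 20.1% of them rose and 2.58% fell.

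Replicates scattered somewhat more among members than among named genes of like level. The median standard deviation within groups (n = 4 each) was 0.25, 0.30, 0.30 and 0.33 for members from the lowest to the highest quartile, and 0.22, 0.26, 0.25 and 0.24 for probe sets with 1 symbol. This differed with suffix. In the highest quartile the median standard error of the difference was 0.28 for _f_at members but 0.17 for _at members. For probe sets with 1 symbol it was also 0.17. Across the members, arrays of the same group and day correlated at r = 0.965 to 0.990. Arrays of the same day but different groups correlated at 0.937 to 0.967, and arrays of 1 group from different days at 0.922 to 0.977. The day therefore separated arrays about as much as the label did, and these values describe arrays that share probes and processing.

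Family probe sets had the largest median difference among the 6 suffixes of the members, and how many of them passed the test depended on whether the day was in the fit. Among the 290 _f_at members 261 differences were positive (90.0%) and the median was 0.31, but 19 rose (6.55%) and none fell in limma's test. At an unadjusted p under 0.05 there were 51 rises and 8 falls. With the hybridization day as a block 71 rose (24.5%) and 7 fell (2.41%), against 12.7% and 13.0% of all probe sets. The 194 _f_at probe sets with 1 symbol had a median of 0.26, with 36 rises and 5 falls (54 and 12 with the day as a block), and the 102 with several symbols one of 0.30, with 35 rises and no fall (falls at an unadjusted p under 0.05 numbered 1). The shift was thus shared by _f_at probe sets with and without names. It was 0.13 on day 1 and 0.51 on day 2 for the members.

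Levels of _f_at members differed between the days. Their median was 10.56, 10.94, 11.60 and 11.52 in V81G 1 to 4 and 10.61, 10.53, 11.07 and 11.07 in wild type 1 to 4. Both day 2 arrays of each group were above both of its day 1 arrays, and on day 1 the groups overlapped. In the highest quartile 117 of 124 _f_at members had a positive difference with a median of 0.26, and none passed in either direction, with a median standard error of 0.28. At an unadjusted p under 0.05 they held 8 rises and 2 falls. With the day as a block 12 rose and 2 fell, and the median standard error was 0.16. Of the 32 in the second quartile 9 rose (28.1%), with a median of 0.48. In that quartile 8.74% of all members and 8.90% of the probe sets with 1 symbol rose. The second quartile had the highest share of rises among _f_at members, with 4.65% in the lowest and 12.5% in the third. Over all levels rises made up 18.6% of the _f_at probe sets with 1 symbol and 34.3% of those with several.

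Among the other suffixes rises outnumbered falls, except among _r_at members. Of the 1861 _at members 136 rose (7.31%) and 20 fell (1.07%), with a median of 0.06, against -0.08 for _at probe sets with 1 symbol, of which 505 rose and 710 fell. The 161 brightest _at members, in the highest quartile, held 35 rises (21.7%) and 10 falls (6.21%). In that quartile 8.54% of the probe sets with 1 symbol, of any suffix, rose and 21.1% fell. Among 69 _s_at members 13 rose (18.8%) and 1 fell, with a median of 0.21, while among 433 _s_at probe sets with 1 symbol 17 rose and 30 fell, with a median of -0.14. The 152 _s_at probe sets with several symbols were closer to the members, with 37 rises (24.3%), 8 falls (5.26%) and a median of 0.18. Of 142 _i_at members 12 rose (8.45%) and 1 fell (median 0.16), and of 38 _g_at members 4 rose (10.5%) and 2 fell (median 0.10). These shares of rises were near the 8.96% of all probe sets. Among probe sets with 1 symbol 4 of 83 _i_at rose and 6 fell, and 4 of 120 _g_at rose and 8 fell. None of the 43 _r_at members rose in limma's test and 1 fell (median 0.02). At an unadjusted p under 0.05 these counts were 2 and 5.

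**Figure D4:**
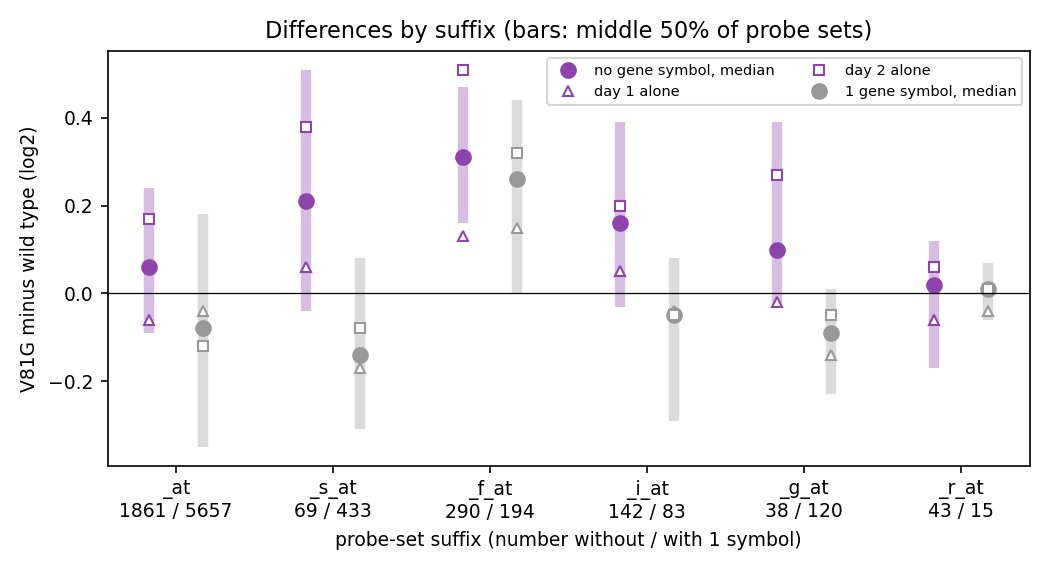
Median difference of V81G minus wild type (log2) by probe-set suffix for probe sets without a symbol (purple) and with 1 symbol (grey). Bars span the middle 50% of the probe sets, open triangles and squares give the medians of day 1 and day 2 alone. Medians of _f_at probe sets lie at 0.31 and 0.26, and those of _s_at at 0.21 and -0.14. Probe sets with several symbols are not drawn, and their medians were 0.30 for _f_at and 0.18 for _s_at.

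The largest rise among the members was 2.97, beside 2.91 among probe sets with 1 symbol. 4020_at read 12.03, 12.33, 11.59 and 11.62 in V81G 1 to 4 and 9.01, 8.97, 9.08 and 8.62 in wild type 1 to 4. Every array labelled V81G was far above every one labelled wild type, and it rose by 2.97 ± 0.19 (SE, 7.86-fold, limma adjusted p = 2.2e-05). Its wild-type mean of 8.92 ± 0.20 (SD, n = 4) lay under the mouse-control gauge. Whether background shrank this size was not tested. 10432_at read 12.95, 13.30, 12.58 and 12.76 in V81G 1 to 4 and 10.19, 10.54, 10.07 and 10.24 in wild type 1 to 4. Both group means were above the gauge, and the rise was 2.63 ± 0.18 (6.21-fold, adjusted p = 3.1e-05). The rises were similar within days, at 3.19 and 2.76 for 4020_at and at 2.76 and 2.51 for 10432_at.

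Among the shared and family probe sets the largest rises bore consecutive numbers. 11244_s_at, the largest of the _s_at members, read 11.09, 10.87, 11.02 and 10.92 in V81G 1 to 4 and 8.40, 8.78, 8.67 and 8.91 in wild type 1 to 4. It rose by 2.28 ± 0.14 (4.87-fold, adjusted p = 1.6e-05). Its wild-type mean was under the gauge, and whether background shrank this size was not tested. 11242_f_at, the largest of the _f_at members, read 11.86, 11.94, 12.24 and 11.88 against 9.66, 10.20, 9.81 and 10.05. It was separated just as clearly and rose by 2.05 ± 0.16 (4.14-fold, adjusted p = 4.9e-05). Between them 11243_s_at rose by 1.63 ± 0.14 (adjusted p = 9.2e-05).

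Smaller rises led the remaining suffixes. 6947_g_at, 1 of the brighter members, had means of 14.84 ± 0.31 and 13.40 ± 0.11 (SD, n = 4 each) and rose by 1.45 ± 0.16 (adjusted p = 4.3e-04), by 1.76 on day 1 and 1.13 on day 2. 6965_i_at rose by 1.31 ± 0.17 (adjusted p = 8.1e-04), with means of 9.46 and 8.14 that both lay under the gauge. Its neighbours by number, 6963_at and 6964_s_at, rose by 1.82 ± 0.20 and 1.25 ± 0.13.

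The largest falls were smaller than the largest rises, and the call of 5476_at depended on single arrays while that of 10902_at did not. 5476_at read 10.67, 10.05, 12.58 and 11.76 in V81G 1 to 4 and 12.68, 12.80, 13.14 and 13.37 in wild type 1 to 4. V81G 3 came close to wild type 1 without overlap, and the V81G arrays of day 1 were the lowest. It fell by 1.73 ± 0.47 (adjusted p = 0.0301), by 2.38 on day 1 and 1.09 on day 2. The call was lost without V81G 1 or 2 or any 1 of the 4 wild-type arrays (adjusted p = 0.0505 to 0.0929), and over all alternatives its adjusted p ran from 0.00212 to 0.195. 10902_at read 10.64, 10.59, 11.16 and 11.42 against 12.17, 12.27, 12.68 and 12.83. Its groups were well apart, and it fell by 1.54 ± 0.23 (2.90-fold, adjusted p = 0.00162), a call kept under every alternative tried, with adjusted p from 3.0e-05 to 0.0241.

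The largest falls of the other suffixes were near 2-fold or smaller, and those of 8771_r_at and 9837_s_at were near the limit of the test. 8730_g_at fell by 0.96 ± 0.19 (adjusted p = 0.00662) and 7048_i_at fell by 1.03 ± 0.22 (adjusted p = 0.00965), both with group means under the gauge. 8771_r_at fell by 0.47 ± 0.14 (adjusted p = 0.0414), also under the gauge, and lost its call once replicate numbers were blocked (adjusted p = 0.063) and when any 1 array other than V81G 4 was left out. 9837_s_at, with means of 12.70 and 13.29, fell by 0.59 ± 0.16 (adjusted p = 0.0307). It lost its call under quantile normalization (adjusted p = 0.121) and when any 1 array other than V81G 1 or wild type 3 was left out. Their adjusted p ran over all alternatives from 0.0277 to 0.139 for 8771_r_at and from 0.0057 to 0.167 for 9837_s_at. The brightest member, 9183_s_at, had means of 15.37 ± 0.05 and 15.41 ± 0.02 (SD, n = 4 each), close to the ceiling of the values at 15.43, and differed by -0.04 ± 0.11 (adjusted p = 0.84).

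**Figure D5:**
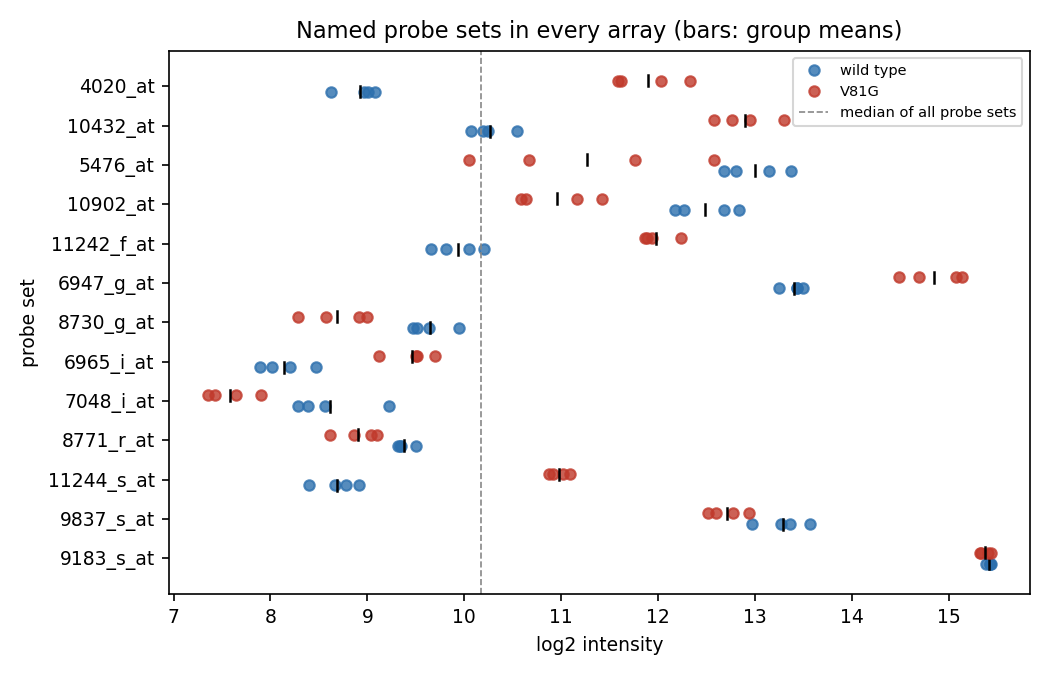
Log2 intensity of 13 members in each of the 4 arrays labelled V81G (red) and the 4 labelled wild type (blue), with group means (black bars) and the median of all probe sets (dashed). Separate groups were a condition for naming 12 of them, such as 4020_at with means of 11.89 and 8.92. The brightest, 9183_s_at, was taken whatever its test, and its groups overlap.

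Some of the rises came in runs of consecutive ID numbers, at a share near that of all probe sets. There were 1570 pairs of members with consecutive numbers. In 212 pairs at least 1 member rose, and in 37 of these both did (17.5%). Among probe sets with 1 symbol both rose in 110 of 848 such pairs (13.0%), and over all probe sets in 209 of 1437 (14.5%). Of the risen members 151 had another member at the next number up or down, and for 65 of them (43.0%) it rose too. That share was 34.8% for probe sets with 1 symbol (188 of 540) and 41.6% over all probe sets (346 of 831). Beside members that did not pass, a neighbouring member rose for 168 of 1736 (9.68%), against 13.9% over all probe sets that did not pass. Falls paired once among the 28 pairs in which a member fell, and in 1 pair the members went opposite ways. The clusters included 7 runs of at least 3 numbers, and the longest, of 5, went from 10809_g_at to 10813_s_at with rises of 0.85 to 1.92. Another held 4651_at, 4652_at and 4653_at, which rose by 1.93 ± 0.15, 2.00 ± 0.24 and 1.62 ± 0.26, while 3952_at, 3953_at and 3954_at stood at 0.60 ± 0.16, 1.69 ± 0.18 and 0.67 ± 0.13. In the run of 9828_at, 9829_at and 9830_at the rises were 1.48 ± 0.30, 1.43 ± 0.29 and 1.02 ± 0.31, and 9235_at, 9236_at and 9237_at rose by 1.28 ± 0.25, 2.03 ± 0.21 and 0.97 ± 0.13. Also 4019_at, next to 4020_at, rose by 2.10 ± 0.17, and 10433_at, next to 10432_at, by 1.28 ± 0.27. Whether the probe sets of a run read the same or overlapping RNAs was not tested, so they are not counted as separate transcripts. The runs were looked for after the values were seen.

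The numbering follows the chromosomes for named genes. Of 5596 pairs of single-symbol probe sets with consecutive numbers 5532 lay on the same chromosome (98.9%), by the RefSeq gene table. Among single-symbol probe sets whose nearest named neighbours on both sides share a chromosome, 99.6% lay on it too. Members themselves have no annotated chromosome, so only their nearest named neighbours can be given. For 1732 members both neighbours lay on 1 chromosome. Of the 38 with both on chromosome VIII 8 rose and none fell in limma's test (13 and 0 at an unadjusted p under 0.05), 36 differences were positive and the median was 0.33. Over the other 16 groups, which count the mitochondrial genome as 1, the medians ran from -0.05 (chromosome X) to 0.21 (chromosome IX). The 1694 members of these groups held 105 rises (6.20%) and 20 falls, with a median of 0.06. The 711 members with neighbours on different chromosomes held 71 rises (9.99%) and 5 falls, with a median of 0.18. Of the 298 single-symbol probe sets on chromosome VIII 113 rose (37.9%) and 5 fell, with a median of 0.42, and of the 6206 on other chromosomes 454 rose (7.32%) and 754 fell, with a median of -0.10. Chromosome VIII was looked at because this was known, and its 8 risen members are few of the 184.

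Beside risen members, named genes at the next number rose more often than they fell. Of the 184 members that rose, 73 had a single-symbol probe set at the next number up or down, and for 21 of them (28.8%) such a neighbour rose and for 5 (6.85%) it fell. Among 976 members that did not pass, a neighbour rose for 107 (11.0%) and fell for 136 (13.9%). Named genes beside each other did likewise. A single-symbol neighbour rose for 34.8% of risen single-symbol probe sets (188 of 540), against 12.4% of those that did not pass (618 of 4998). Chromosome VIII was not set apart in these counts. Of the 25 members that fell 16 had such a neighbour, which fell for 4 and rose for none. Whether the member and the named gene share sequence or a transcript was not tested.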

How the data were processed

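The deposited table holds linear intensities (89.9 to 44207), 1 per probe set, made by the authors with RMA, per the submitters' processing notes, without a version. Later scaling or centring is not stated, and array medians were 1099 to 1190. The number of arrays limits the precision. The labels call arrays of a group biological replicates. log2 values of the deposited intensities entered lmFit and eBayes of limma 3.58.1 (R 4.3.3), two-sided with no covariate, over 9275 probe sets, after 60 controls were left out. The step was tested on simulated data whose arrays varied independently, so variation shared by arrays of a day was not covered. Same-numbered arrays of the 2 groups deviated together (r = 0.23 to 0.44), so the replicate number was used as a block in an alternative. The array of the other group that matched best was of the same hybridization day in every case but had the same number for only 3 of 8 arrays. The day was blocked in another alternative. Of the fluidics stations, station 2 ran V81G 1 and 2 and wild type 4. Named members were, among called ones whose groups did not overlap, the 2 largest rises and 2 largest falls of _at and the largest of each other suffix, plus the brightest, besides those with consecutive numbers, named after their values were seen. Members, lists and tests were chosen with earlier results of these data known. Chromosomes came from RefSeq assembly R64 by gene ID. No probe sequences were used.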

Additional observations from a re-analysis of the deposited data

Results flagged for a closer look

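In wild type 1 the probe set 8771_r_at read 9.50, while the other 3 arrays labelled wild type read 9.32 to 9.35. The gap to the nearest array was 0.849 of the group's whole range, above Dixon's 95% limit for 4 samples. It was 1 of 30 groups of 4 examined, and chance gives about 1 in 20.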

How the results depend on the processing

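Over 24 alternatives the members' median difference stayed between -0.03 and 0.21, and rises outnumbered falls in each. Among these, keeping only members absent from the annotation left the same 2443, so its outcome could not differ from the main one. The 2-fold limit could not move the median. Counts of rises, falls and both were 311, 53 and 364 with the day as a block, 81, 6 and 87 at 2-fold or more, and 119, 14 and 133 within day 1, where the median was -0.03. Within day 2 the median was 0.21. Among probe sets at or above the median level, where fewer members are tested, 96 rose, 117 were called in all and the median was 0.19. With several-symbol probe sets added 38 fell. With wild type 2 and 4 both left out, chosen after seeing the data, the counts were 121, 7 and 128. Leaving out 1 array gave 11 to 21 falls, 132 to 192 rises, 147 to 213 calls and medians of 0.01 to 0.16. With the replicate number as a block 242 rose and 32 fell, and of the 13 named members only 8771_r_at lost its call. Among 266 repeats for these 13, no difference changed sign and 31 lost the call, all of 5476_at, 8730_g_at, 8771_r_at or 9837_s_at. The cause was not tested. Signals near background limit what dim members can show.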

Other observations

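The values of 5476_at can be set beside those of the array's URA3 control probe set, a choice made after both were seen. URA3 encodes an enzyme of uracil synthesis and is a common plasmid marker. The control read 10.96, 10.49, 12.23 and 11.75 in V81G 1 to 4 and 13.78, 13.81, 14.29 and 14.11 in wild type 1 to 4. In both probe sets V81G 2 was the lowest array and V81G 3 the highest of the V81G group. Among the wild-type arrays both were lowest in wild type 1. Their highest was wild type 4 for 5476_at (13.37) and wild type 3 for URA3 (14.29). In both, every array labelled V81G lay below every one labelled wild type, which for 5476_at was a condition of its being named. The nearest named neighbours of 5476_at by number lie on chromosome V, and whether it reads URA3 RNA was not tested.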
